A study of Mus musculus with 7 samples.

Results

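A set of 10 genes of MHC class I antigen presentation and the immunoproteasome was followed through RNA-seq of lineage-depleted (lin-) marrow of mice with and without *HRP-2*. The 10 genes were taken by name: *H2-D1*, *H2-K1*, *B2m*, *Tap1*, *Tap2*, *Tapbp*, *Psmb8*, *Psmb9*, *Psmb10* and *Nlrc5*. All 10 were among the 25033 gene symbols of the count files, and all 10 were among the 11265 genes with enough reads to be tested. The wild type group (Hrp2+/+, labelled WT) held 3 mice and the knockout group (Hrp2-/-, labelled KO) held 4. The knockout allele, tm1b of *Hdgfrp2* (listed in the files as *Hdgfl2*), was systemic and on a C57BL/6N background, and few homozygous mice lived to weaning, so that the knockout libraries came from survivors. Bone marrow was taken from mice of 6 to 8 weeks and depleted of lineage-positive cells, and neither group received a treatment. HRP-2 is a chromatin reader related to LEDGF/p75, and the comparison of genotypes asked which transcripts depend on it in hematopoietic progenitors.

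Class I molecules display peptides from a cell's own proteins to CD8+ T cells and are also read by natural killer cells. A heavy chain (*H2-D1*, *H2-K1*) pairs with beta-2 microglobulin (*B2m*) in the endoplasmic reticulum, where the transporter of *Tap1* and *Tap2* delivers peptides and tapasin (*Tapbp*) holds the empty molecule at the transporter. The peptides come from the proteasome, and in blood cells and under interferon gamma its catalytic subunits are exchanged for inducible ones (*Psmb8*, *Psmb9*, *Psmb10*), which gives the immunoproteasome. The protein encoded by *Nlrc5*, a transactivator, raises transcription of class I genes. Interferons act on the same genes through IRF and other factors, and NF-kB acts on the heavy chain promoters.

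Most of the genes lie close together in the MHC on mouse chromosome 17, where *Hdgfl2* lies too. In GENCODE M21 on GRCm38, *Tapbp* (chr17:33915899-33929292, plus strand) is followed by *H2-K1* (chr17:33996017-34000347, minus strand). Further along, *Psmb9* (chr17:34181987-34187764, minus strand), *Tap1* (chr17:34187553-34197225, plus strand), *Psmb8* (chr17:34197721-34201454, plus strand) and *Tap2* (chr17:34203527-34216321, plus strand) form a compact cluster of 34335 bp. *H2-D1* (chr17:35262730-35267499, plus strand) lies 1.27 Mb from *H2-K1*, and the knocked-out gene lies 20.8 Mb beyond *H2-D1*. The other 3 genes are elsewhere: *B2m* at chr2:122147686-122153083 on the plus strand, *Nlrc5* at chr8:94434356-94527272 on the plus strand and *Psmb10* at chr8:105935735-105938444 on the minus strand.

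The promoter windows of both heavy chain genes, of *B2m* and of *Tap1* are shown because these are the regions through which the interferon, NF-kB and NLRC5 routes are known to act. Each is the 250 bases before the RefSeq transcription start (GRCm38.p6), written 5′ to 3′ on the gene's strand, with capitals for the motif matches. The window of *H2-D1* is chr17:35262844-35263093 (plus strand), that of *H2-K1* chr17:34000348-34000597 (minus strand), that of *B2m* chr2:122147437-122147686 (plus strand) and that of *Tap1* chr17:34187306-34187555 (plus strand).
H2-D1: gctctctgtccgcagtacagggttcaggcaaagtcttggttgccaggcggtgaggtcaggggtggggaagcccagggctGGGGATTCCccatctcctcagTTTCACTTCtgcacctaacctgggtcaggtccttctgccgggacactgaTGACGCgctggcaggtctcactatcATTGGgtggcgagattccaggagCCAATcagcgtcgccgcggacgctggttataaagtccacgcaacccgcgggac
H2-K1: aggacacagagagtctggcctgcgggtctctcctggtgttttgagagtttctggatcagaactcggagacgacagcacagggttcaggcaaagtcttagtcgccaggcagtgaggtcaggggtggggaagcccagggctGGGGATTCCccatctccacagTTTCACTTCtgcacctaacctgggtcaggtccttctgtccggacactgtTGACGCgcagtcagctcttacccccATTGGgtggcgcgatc
B2m: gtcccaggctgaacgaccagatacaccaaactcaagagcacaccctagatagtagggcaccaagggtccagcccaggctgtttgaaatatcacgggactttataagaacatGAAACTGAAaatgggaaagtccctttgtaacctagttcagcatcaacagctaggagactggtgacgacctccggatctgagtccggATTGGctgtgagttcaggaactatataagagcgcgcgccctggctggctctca
Tap1: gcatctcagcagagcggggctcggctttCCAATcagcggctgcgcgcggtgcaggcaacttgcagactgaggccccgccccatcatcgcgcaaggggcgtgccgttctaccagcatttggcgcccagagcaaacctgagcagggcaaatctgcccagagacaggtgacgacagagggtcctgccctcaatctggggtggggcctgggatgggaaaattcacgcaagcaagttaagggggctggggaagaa

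The windows were searched on both strands for the letters GAANNGAAA and GAAANNGAA (IRF elements, which can overlap each other), TTCNNNGAA (gamma-activated site), GGGGATTCC (kappa B), TGACGC (core of the X2 box) and CCAAT. Both heavy chain windows held 1 kappa B match, 1 IRF match and 1 X2 core in the same order and at the same spacing. The kappa B match started 21 bases before the IRF match and 70 bases before the X2 core in each; the whole block sits nearer to the annotated start in *H2-K1*. In *H2-D1* the IRF match ran from -150 to -142, and in *H2-K1* from -90 to -82, counted from the start site. In *B2m* the match to GAAANNGAA ran from -139 to -131, with CCAAT at -53. Of 32851 RefSeq windows of this length, 0.213% held the kappa B letters, 6.31% GAANNGAAA, 7.13% GAAANNGAA, 7.02% the gamma-activated site, 6.12% the X2 core and 33.8% CCAAT. *Tap1* and *Psmb9* are transcribed away from each other from starts 226 bp apart and so share most of this stretch; the *Tap1* window held 1 CCAAT at -222 and none of the other letters. *Psmb8* held a gamma-activated site from -97 to -89, *Tapbp* held 2 CCAAT matches, and the window of *Psmb10* held none of the letters searched. These are matches of letters and say nothing of whether a factor was bound. For *Tap2* and *Nlrc5* no RefSeq window was used here.

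The libraries held between 3525665 and 4490287 reads on genes in wild type and between 4355974 and 5605158 in knockout mice. *Hdgfl2* had 228, 156 and 168 reads in wild type and 13, 3, 8 and 2 reads in knockout mice, low in every library labelled knockout. Levels are given as CPM (counts scaled to library size by the TMM method), and reads came from the 3′ end of transcripts, so that their number does not grow with transcript length. Progenitor genes were abundant in every library, with the summed level of 12 progenitor markers between 9683 and 11977 CPM in wild type and between 8668 and 11447 CPM in knockout mice. The most abundant of them, *Mpo*, alone stood between 5040 and 6810 CPM in wild type and between 4746 and 6484 CPM in knockout mice. Of the 12 markers, 9 had a negative log2 fold change, knockout over wild type, with a median of -0.12. The hemoglobin genes *Hba-a1*, *Hba-a2*, *Hbb-bs* and *Hbb-bt* were listed at 0 reads in every file, while the erythroid gene *Slc4a1* stood between 7.77 and 59.6 CPM; a listed 0 may come from the symbols or the counting and was not read as absence of the RNA. Knockout replicate 3 stood apart, with *Xist* at 0.561 CPM where the remaining 6 mice had 229.0 to 302.8 CPM, and with 559 reads of the Y-linked gene *Ddx3y* where the others had 0 to 4. The labels give no sex, and only the knockout group held such a library. The ribosomal RNA gene *Rn45s* took between 4.94% and 20.6% of the reads on genes. Its share was highest in wild type replicate 2 (20.6%) and knockout replicate 4 (18.6%).

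Most of the class I presentation genes had a somewhat lower mean in knockout mice, and no single gene passed the test. The log2 fold change, knockout over wild type, was negative for 9 of the 10 genes, against 50.2% of all genes tested. Its median was -0.24 against -0.0014 over all genes. The count of negative values was 8 with DESeq2, limma-voom, RLE factors or library totals, where *Tapbp* turned. It was 7 without wild type replicate 1 and 7 without knockout replicate 3. None of the 10 passed an adjusted p of 0.25, the threshold used by the study, in edgeR's quasi-likelihood test with Benjamini-Hochberg adjustment (adjusted p = 0.999 for each), where 0.0178% of genes passed. At an unadjusted p under 0.05 there were 3, *Tap2*, *Psmb9* and *B2m*, all lower in knockout mice, against 2.07% of all genes lower and 3.63% in either direction. DESeq2 likewise called 0 of the 10 and had 2 at an unadjusted p under 0.05, against 3.50% of all genes in that fit. In none of the 10 genes were the groups apart: the lowest wild type mouse lay within or below the knockout range each time, while 5.16% of all genes did not overlap between groups. The 10 genes were measured in the same 7 mice and several shifted together from mouse to mouse, so their shared sign is not 10 separate observations. In bulk RNA, fewer cells of a type and less RNA per cell cannot be told apart.

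**Figure D1:**
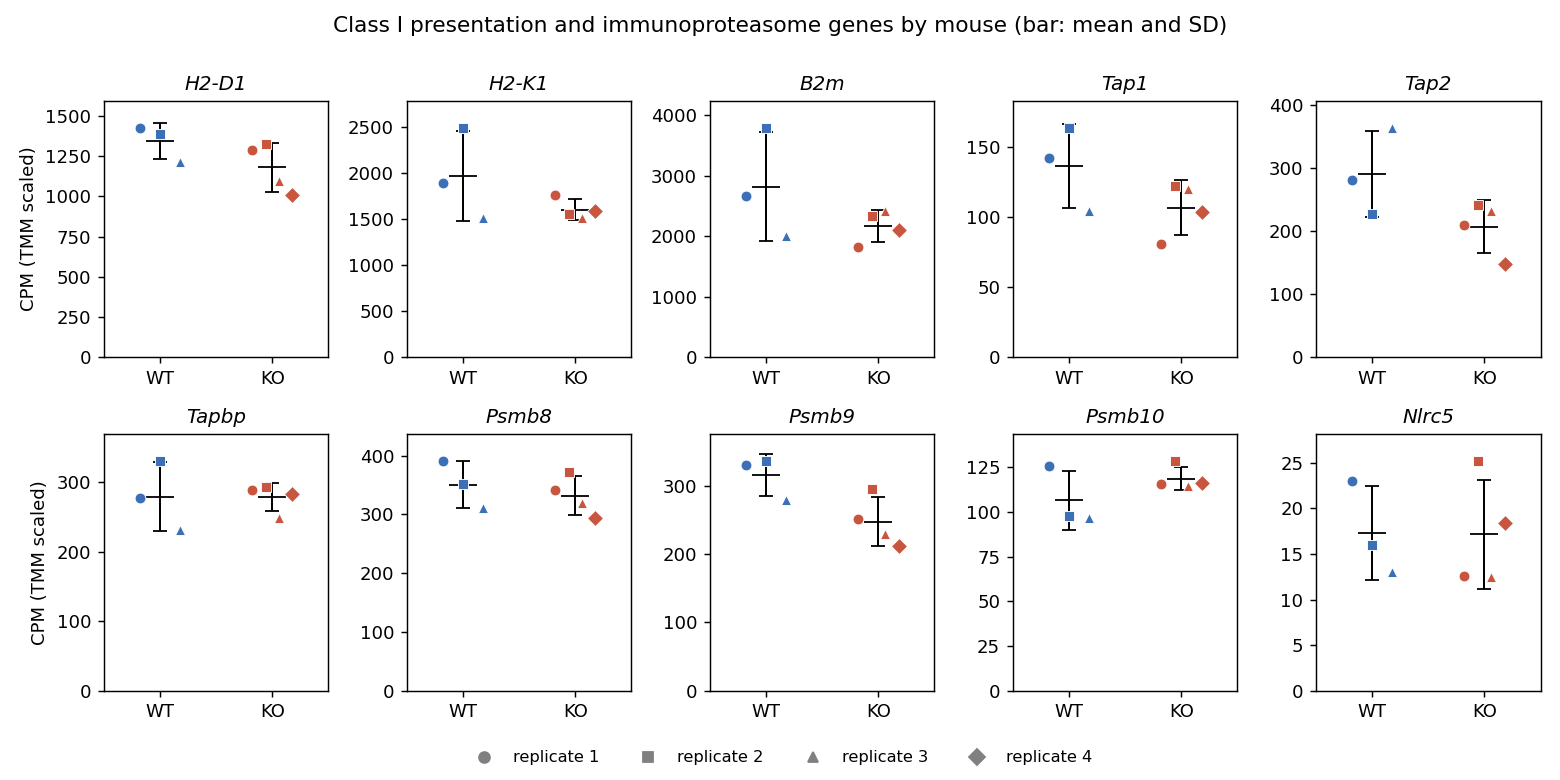
Level of the 10 genes in each mouse, in CPM scaled by TMM on a linear axis that starts at 0 in every panel; each point is 1 mouse, blue for the 3 WT and red for the 4 KO mice, with the marker shape giving the replicate number and bars the mean and SD. The groups overlap in all 10 panels; for *B2m*, WT replicate 2 stands at 3785 CPM above every other mouse.

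The peptide-binding heavy chains came first in the order of presentation. *H2-D1* stood at 1424, 1386 and 1216 CPM in wild type and at 1286, 1326, 1093 and 1011 CPM in knockout mice. The wild type mean was 1342 ± 111 CPM (SD, n = 3) and the knockout mean 1179 ± 152 CPM (SD, n = 4). The log2 fold change was thus -0.19 (SE 0.13), with a 95% interval from -0.47 to 0.095, and -0.12 without knockout replicate 4. Knockout replicates 1 and 2 lay above the lowest wild type mouse, and knockout replicates 3 and 4 below it. *H2-K1*, the second classical heavy chain of this strain, stood at 1892, 2486 and 1515 CPM in wild type and at 1762, 1552, 1505 and 1581 CPM in knockout mice. Its spread was carried by the wild type group, with 1964 ± 489 CPM (SD, n = 3) against 1600 ± 112 CPM (SD, n = 4). The log2 fold change of *H2-K1* was -0.30 (SE 0.15), with a 95% interval from -0.61 to 0.021. Without wild type replicate 2, the highest of the 7, it was -0.090, and without wild type replicate 3 it was -0.45.

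*B2m*, the invariant light chain without which heavy chains do not stay at the surface, was the member with the most reads. It stood at 2655, 3785 and 2007 CPM in wild type and at 1824, 2333, 2408 and 2100 CPM in knockout mice. Of the 4 knockout mice, 3 lay above the lowest wild type mouse, and none reached the other 2. The means were 2816 ± 900 CPM (SD, n = 3) and 2166 ± 263 CPM (SD, n = 4), with a log2 fold change of -0.38 (SE 0.18), a 95% interval from -0.75 to -0.0030 and an unadjusted p of 0.0484 in edgeR's test. The value rested on wild type replicate 2: it was -0.11 without that mouse and -0.57 without wild type replicate 3. The 3′ end of *B2m* lies within *Patl2* on the other strand but shares 0% of its words of 75 bases, the read length, with transcripts of other genes.

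The transporter subunits were lower on average, but in different mice. *Tap1*, which with *Tap2* forms the peptide channel, stood at 141.9, 163.5 and 104.4 CPM in wild type and at 80.5, 122.4, 120.3 and 103.9 CPM in knockout mice. The means were 136.6 ± 29.9 CPM (SD, n = 3) and 106.8 ± 19.4 CPM (SD, n = 4), with a log2 fold change of -0.36 (SE 0.17), and -0.21 without wild type replicate 2. Knockout replicates 2 and 3 lay inside the wild type range. *Tap1* had the same order of wild type mice as *B2m*, *H2-K1* and *Tapbp*. *Tap2* stood at 281.9, 227.9 and 363.7 CPM in wild type and at 209.1, 241.9, 231.3 and 147.5 CPM in knockout mice. Here wild type replicate 3 was the highest and wild type replicate 2 the lowest of its group, the reverse of *Tap1*, and knockout replicates 2 and 3 lay above that lowest mouse. The means of *Tap2* were 291.2 ± 68.4 CPM (SD, n = 3) and 207.5 ± 42.2 CPM (SD, n = 4). Its log2 fold change of -0.49 (SE 0.18) had the smallest p of the 10 genes, 0.0145 unadjusted, rank 112 of the 11265 genes in edgeR's quasi-likelihood test. It was -0.64 without wild type replicate 2 and -0.30 without wild type replicate 3, and in every omission of 1 mouse it was negative. Of the words of 75 bases, the read length, in the last 500 bases of *Tap2* transcripts, 6.45% also occur in the transcript *Gm20496*, and how the counting treated such reads is not given in the sources used here.

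Tapasin and the transactivator showed no difference that these mice could resolve. *Tapbp* stood at 276.9, 329.8 and 230.9 CPM in wild type and at 288.2, 293.2, 249.1 and 283.0 CPM in knockout mice. All 4 knockout mice lay inside the wild type range. The means were 279.2 ± 49.5 CPM (SD, n = 3) and 278.4 ± 19.97 CPM (SD, n = 4), and the log2 fold change of -0.0041 (SE 0.14) changed sign with the scaling, to 0.0045 with RLE factors and 0.013 with library totals; its 95% interval ran from -0.30 to 0.29. Of the words of 75 bases at the 3′ end of *Tapbp*, 17.4% occur also in *Gm19412* or *Zbtb22*. *Nlrc5* was the member with the fewest reads, between 49 and 121 per mouse. Its levels were 23.04, 15.96 and 13.02 CPM in wild type and 12.63, 25.14, 12.52 and 18.44 CPM in knockout mice, with the highest and the lowest mouse both in the knockout group. The log2 fold change of *Nlrc5* was -0.024 (SE 0.29), and the 95% interval from -0.64 to 0.59 leaves room for a change of either sign larger than the estimate for any other member.

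Of the immunoproteasome genes, *Psmb9* had a lower mean in knockout mice, *Psmb8* differed little and *Psmb10* was the only member with a positive log2 fold change, none of them past the adjusted threshold. *Psmb9*, which replaces *Psmb6*, stood at 329.7, 335.2 and 279.5 CPM in wild type and at 250.7, 295.5, 229.5 and 212.0 CPM in knockout mice. Only knockout replicate 2 reached into the wild type range. The means of *Psmb9* were 314.8 ± 30.7 CPM (SD, n = 3) and 246.9 ± 36.0 CPM (SD, n = 4), with a log2 fold change of -0.35 (SE 0.14) and a 95% interval from -0.64 to -0.057; its unadjusted p was 0.0219, rank 160, in edgeR's test. *Psmb9* and *Tap1* have neighbouring start sites and nearly equal log2 fold changes, but knockout replicate 1 was the lowest for *Tap1* and knockout replicate 4 for *Psmb9*.

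*Psmb8*, which replaces *Psmb5*, stood at 390.1, 351.4 and 310.9 CPM in wild type and at 341.8, 372.4, 320.1 and 294.0 CPM in knockout mice. Of the 4 knockout mice, 3 lay inside the wild type range. The log2 fold change of *Psmb8* was -0.079 (SE 0.13), with a 95% interval from -0.36 to 0.20. *Psmb10*, which replaces *Psmb7*, stood at 125.7, 97.7 and 96.4 CPM in wild type and at 115.6, 128.2, 114.5 and 116.4 CPM in knockout mice. Its knockout values lay close together, 118.7 ± 6.40 CPM (SD, n = 4), and 3 of the 4 lay between wild type replicates 1 and 2. The log2 fold change was 0.15 (SE 0.14), with a 95% interval from -0.15 to 0.45. It was 0.30 without wild type replicate 1, 0.095 without wild type replicate 2 and 0.086 without wild type replicate 3.

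**Figure D2:**
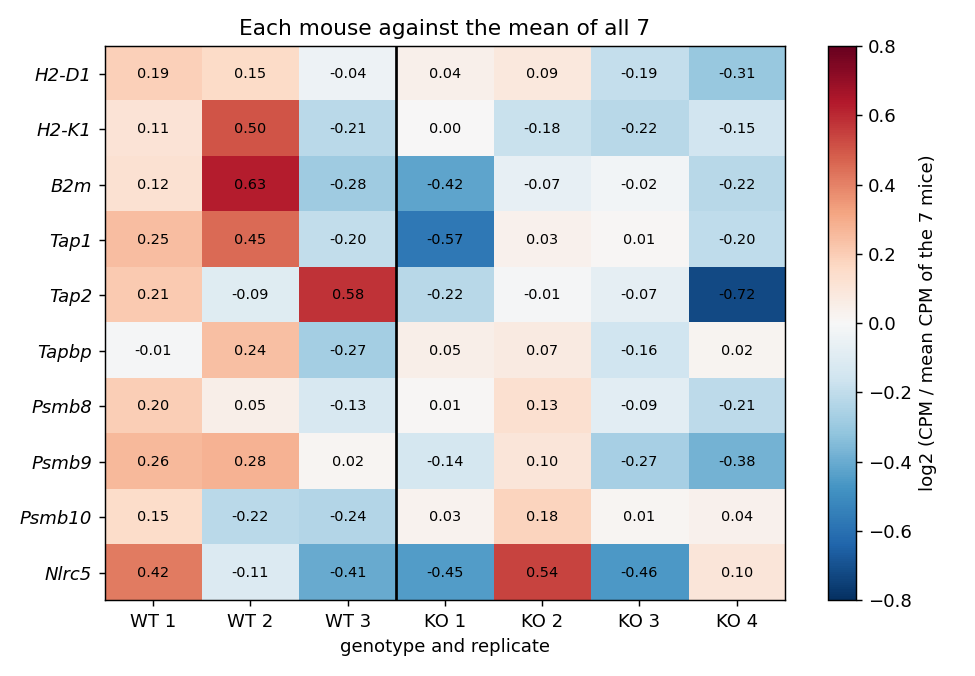
Each of the 10 genes (rows) in each of the 7 mice (columns, WT left and KO right of the line) as log2 of the mouse's CPM over the mean CPM of the 7 mice; red is above and blue below that mean. WT replicate 2 is far above the mean for *B2m* (0.63), *H2-K1* (0.50) and *Tap1* (0.45), while for *Tap2* the extremes are WT replicate 3 (0.58) and KO replicate 4 (-0.72).

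The genes also varied between mice of the same genotype. From the lowest to the highest mouse within wild type, the level differed by 1.89-fold for *B2m*, 1.77-fold for *Nlrc5*, 1.64-fold for *H2-K1*, 1.60-fold for *Tap2* and 1.57-fold for *Tap1*. Within the knockout group it differed by 2.01-fold for *Nlrc5*, 1.64-fold for *Tap2* and 1.52-fold for *Tap1*. Over all 7 mice, *Tap2* spanned 2.47-fold, from wild type replicate 3 to knockout replicate 4, and *Psmb8* 1.33-fold. Wild type replicate 2 was the highest mouse for 5 of the 10 genes (*H2-K1*, *B2m*, *Tap1*, *Tapbp*, *Psmb9*), and knockout replicate 4 the lowest for 4 (*H2-D1*, *Tap2*, *Psmb8*, *Psmb9*). Wild type replicate 1 stood above the mean of the 7 mice for 9 of the 10 genes, but wild type replicate 3 for only 2. Among knockout mice the number above the mean was 5, 7, 2 and 3. Summed over the 10 genes, the level was between 6137 and 9179 CPM in wild type and between 5867 and 6690 CPM in knockout mice, so that wild type replicate 3 lay inside the knockout range. The 10 genes took 0.7654%, 0.8400% and 0.6551% of the reads on genes in wild type and 0.6671%, 0.6970%, 0.5999% and 0.5406% in knockout mice. Without wild type replicate 2, the median log2 fold change of the 10 genes was -0.097, and without knockout replicate 3, the library that stood apart, it was -0.21.

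The exchange of constitutive for inducible catalytic subunits was followed as the ratio of the reads of each pair within a mouse, a quantity that does not depend on the scaling between libraries. A ratio of reads of 2 genes is not a ratio of proteins in the particle, and it was compared only between mice. *Psmb9* over *Psmb6* was 2.03, 2.61 and 1.72 in wild type and 1.57, 1.70, 1.44 and 1.21 in knockout mice. Every knockout ratio lay under every wild type ratio, although the gap between 1.70 and 1.72 was narrow. The mean ratio of the wild type group was 2.12 ± 0.455 (SD, n = 3), and that of the knockout group 1.48 ± 0.209 (SD, n = 4). The difference of the log2 ratios was -0.51 (SE 0.21), with a two-sided exact permutation p of 0.0286, the smallest that the 35 splits of 7 mice can give, and an adjusted p of 0.0857 over the 3 ratios, under 0.25 but not under 0.05. Without wild type replicate 2 the difference was -0.35, with an adjusted exact permutation p of 0.3, above both thresholds.

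*Psmb8* over *Psmb5* pointed the other way, with 3.40, 3.33 and 2.82 in wild type and 4.39, 3.53, 4.56 and 3.23 in knockout mice. Here the groups overlapped through knockout replicate 4. The difference of the log2 ratios was 0.29 (SE 0.15), with an exact permutation p of 0.2 and an adjusted p of 0.3 over the 3 ratios. *Psmb10* over *Psmb7* was 2.04, 1.74 and 1.54 in wild type and 1.76, 1.85, 1.39 and 1.53 in knockout mice, a difference of -0.12 (SE 0.15) with an exact permutation p of 0.457. That difference was -0.016 without wild type replicate 1, -0.047 without knockout replicate 3 and -0.22 without wild type replicate 3. The denominators varied as well: *Psmb5* stood at 114.7, 105.6 and 110.3 CPM in wild type and at 77.9, 105.6, 70.3 and 90.9 CPM in knockout mice. *Psmb7* was between 56.3 and 62.4 CPM in wild type and between 65.9 and 82.6 CPM in knockout mice, with no overlap, and *Psmb6* had a log2 fold change of 0.14. With the mean of the 3 constitutive subunits as the denominator, the differences were -0.10 for *Psmb8* and 0.14 for *Psmb10*, both of the opposite sign, and -0.38 for *Psmb9*, whose adjusted exact permutation p was then 0.343. Of the words of 75 bases at the 3′ end, 61.5% for *Psmb7* occur also in *Nek6*, which overlaps it on the other strand, and 43.6% for *Psmb5* in *Gm3375*, so the counts of these denominators are less certain than those of *Psmb6* and *Psmb9*, which share none.

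**Figure D3:**
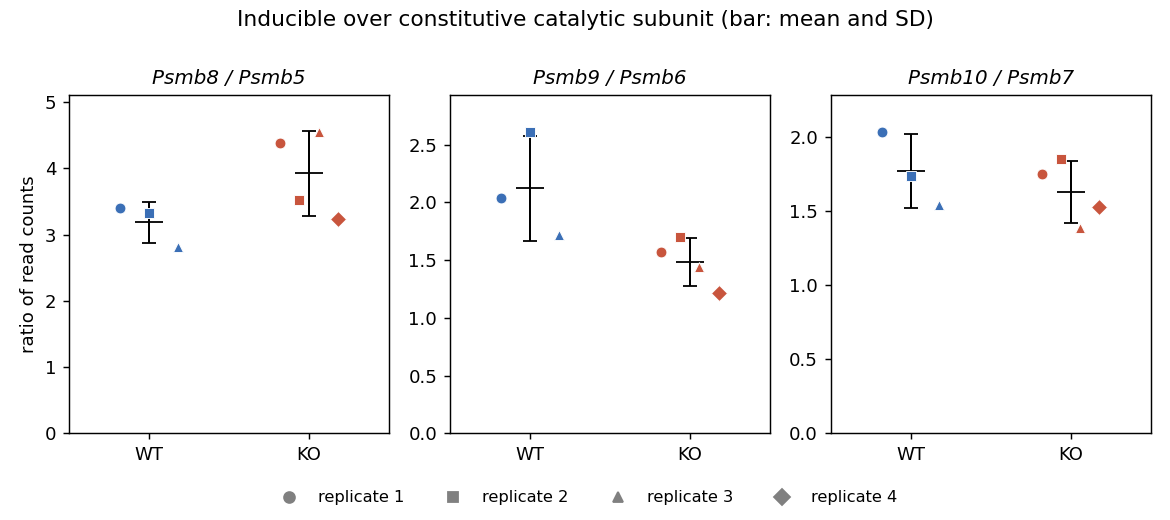
Reads of each inducible catalytic subunit over those of the constitutive subunit it replaces, in each mouse (linear axes from 0; blue WT, red KO, marker shape for the replicate number, bars for mean and SD). The *Psmb9* over *Psmb6* ratio is 1.72 to 2.61 in WT and 1.21 to 1.70 in KO mice, and the groups overlap in the other 2 panels.

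The class Ib and MHC-like genes, relatives of the classical heavy chains with mostly specialised ligands, were followed next. Of 22 listed genes, 10 had enough reads to be tested, all 10 with a negative log2 fold change (9 with limma-voom, and 7 without knockout replicate 3; 50.2% of all genes), and the median was -0.31. In edgeR's quasi-likelihood test 0 passed the adjusted threshold and 2 had an unadjusted p under 0.05, against 3.63% of all genes; DESeq2 and limma-voom also called 0, while the likelihood ratio test and the fit with no filter on low counts called *H2-Q6*. *H2-Q6* stood at 37.7, 29.1 and 32.9 CPM in wild type and at 16.3, 22.4, 13.5 and 22.7 CPM in knockout mice, the one gene of the list whose groups did not overlap (5.16% of all genes). Its log2 fold change was -0.84 (SE 0.23), with an unadjusted p of 0.00173 and an adjusted p of 0.811 in edgeR's quasi-likelihood test with Benjamini-Hochberg adjustment. Of the words of 75 bases at the 3′ end of *H2-Q6*, 39.8% occur in other genes, *H2-Q7* among them, and *H2-Q7*, *H2-Q8* and *H2-Q9* (named after their values were seen) were listed at 0 reads in every mouse. The value may therefore hold reads of more than 1 *H2-Q* gene. *H2-M3*, which presents formylated peptides and shares none of its 3′ words, stood at 30.7, 25.5 and 30.3 CPM in wild type and at 22.9, 27.0, 12.9 and 16.7 CPM in knockout mice, with a log2 fold change of -0.54 (SE 0.25) and an unadjusted p of 0.0434 in edgeR's test. *Cd1d1*, which presents lipids, had -0.058, *H2-T24* -0.089 and *Fcgrt*, the neonatal Fc receptor, -0.15 on the log2 scale.

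Genes for the other steps of class I assembly were mixed in sign. Of 14 tested genes for peptide trimming and loading, 9 had a positive and 5 a negative log2 fold change, with a median of 0.047, and 0 passed either the adjusted threshold or an unadjusted p of 0.05 in edgeR's quasi-likelihood test, in DESeq2 or in limma-voom. The split turned with single mice: 8 of the 14 were negative with a median of -0.026 without wild type replicate 2, and 7 with a median of -0.013 without knockout replicate 3, while the median was 0.13 without wild type replicate 1. The log2 fold changes of the most abundant were 0.071 for *Hspa5*, 0.019 for *Calr* and 0.024 for *Canx*, the chaperones of folding heavy chains, 0.093 for *Uggt1*, the folding sensor, and 0.20 for *Pdia3*, the oxidoreductase of the loading complex. *Canx* was steady, at 477.1 to 500.6 CPM in wild type and 481.2 to 510.2 CPM in knockout mice. Of 8 genes for the proteasome activator and assembly, 7 had a positive log2 fold change, with a median of 0.063, and 0 passed either threshold in the same 3 tools. Among these, *Psme1* and *Psme2*, the interferon-inducible activator that caps the immunoproteasome, had 0.047 and 0.022, *Pomp*, the assembly chaperone, 0.16, and the assembly factors *Psmg2* and *Psmg3* 0.15 and 0.079.

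**Figure D4:**
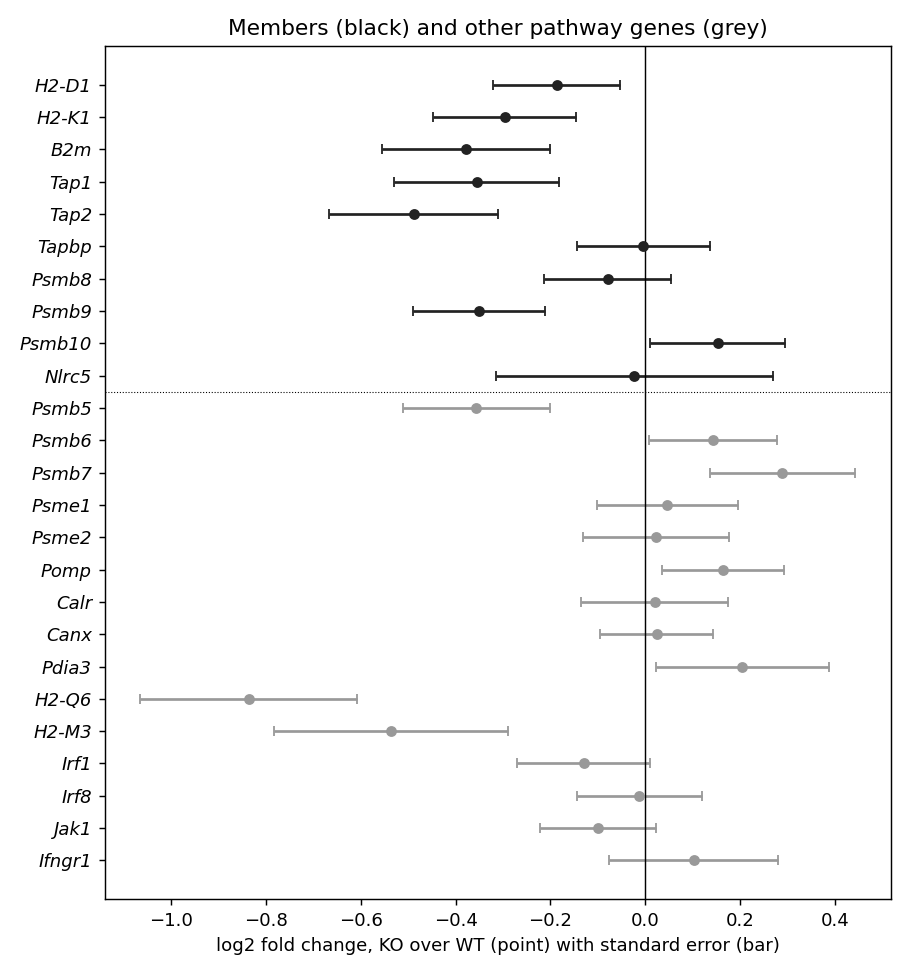
Log2 fold change, knockout over wild type (points), with its SE (bars), for the 10 genes in black and 15 other genes of the route in grey. *Tap2* (-0.49), *B2m* (-0.38), *Tap1* (-0.36) and *Psmb9* (-0.35) lie farthest to the left among the 10, and the chaperones and activator genes lie at or right of 0.

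The regulators that act on class I promoters varied in sign. Of 19 tested, 7 had a positive and 12 a negative log2 fold change, with a median of -0.10 and 0 past the adjusted threshold in edgeR's quasi-likelihood test, DESeq2 or limma-voom. In edgeR's test 3 of the 19 had an unadjusted p under 0.05 (3.63% of all genes), all lower in knockout mice. For 3 of the 19 the groups did not overlap (5.16% of all genes), again all lower in knockout mice. *Irf1*, the activator induced by interferon gamma, stood at 253.6, 285.0 and 194.5 CPM in wild type and at 211.6, 226.5, 234.1 and 221.3 CPM in knockout mice, all 4 inside the wild type range. *Irf8*, a lineage factor of myeloid progenitors, had a log2 fold change of -0.012, *Rela*, a subunit of NF-kB, 0.033, *Creb1*, a factor of the X2 box, -0.10 and *Ezh2*, a repressor of class I genes in tumours, 0.19. Named after their values were seen, *Nfkb1*, an NF-kB subunit, had a log2 fold change of -0.48 and *Irf7*, an interferon-induced factor, -0.57, both with an unadjusted p under 0.05 in edgeR's test. *Nfkb1* stood at 96.3, 109.5 and 127.0 CPM in wild type and at 87.3, 90.6, 77.2 and 62.0 CPM in knockout mice, with no overlap. *Irf7* stood at 28.5, 25.5 and 23.1 CPM in wild type and at 16.7, 24.1, 10.3 and 18.2 CPM in knockout mice, with knockout replicate 2 inside the wild type range. *Ciita*, the class II counterpart of *Nlrc5* and likewise named after its values were seen, had between 4 and 14 reads per mouse and was not tested.

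Interferon receptor, kinase and feedback genes varied in the size and sign of their log2 fold changes. Of 11 tested, 3 had a positive and 8 a negative log2 fold change, with a median of -0.057 and 0 past the adjusted threshold in the same 3 tools. In edgeR's test 2 of the 11 had an unadjusted p under 0.05 (3.63% of all genes). For 1 of the 11 the groups did not overlap (5.16% of all genes). *Ifngr1*, a chain of the interferon gamma receptor, had 0.10, *Ifnar2*, a chain of the type I receptor, -0.050, and the kinases *Jak1*, *Jak2* and *Tyk2* had -0.10, -0.10 and -0.057. Named after their values were seen, *Usp18*, an interferon-induced brake on the type I receptor, had -0.99 and *Ifnar1* -0.38, both with an unadjusted p under 0.05 in edgeR's test. *Ifnar1* stood at 44.8, 51.5 and 60.0 CPM in wild type and at 36.9, 42.6, 38.1 and 42.9 CPM in knockout mice, with no overlap. *Usp18* was low in all mice, at 8.56, 16.2 and 12.5 CPM in wild type and at 4.28, 5.61, 6.17 and 8.97 CPM in knockout mice, with knockout replicate 4 above wild type replicate 1. The interferon gene *Ifnb1*, also named after its values were seen, was listed at 0 reads in all 7 mice.

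Marker genes of other cell types that carry abundant class I molecules were read beside the 10 genes. The 10 macrophage markers summed to 450.6 to 486.6 CPM in wild type and 328.8 to 408.6 CPM in knockout mice, and 8 of the 10 had a negative log2 fold change (7 with limma-voom). For 7 of these the groups did not overlap, against 5.16% of all genes, and *C1qc*, a complement gene of resident macrophages, had the smallest adjusted p of the list at 0.322 in edgeR's quasi-likelihood test with Benjamini-Hochberg adjustment. At the threshold of 0.25, DESeq2 and the fit with no filter on low counts called *C1qc*, the likelihood ratio test called *C1qa* and *C1qc*, and limma-voom called 0 of the 10. At an unadjusted p under 0.05 there were 6 of the 10 in edgeR's quasi-likelihood test, all lower in knockout mice, against 3.63% of all genes. With limma-voom there were 7, against 3.59% of all genes. *C1qc* stood between 31.6 and 36.6 CPM in wild type and between 16.1 and 18.7 CPM in knockout mice. The 9 tested T and NK markers summed to 734.7 to 800.1 CPM in wild type and 572.1 to 765.7 CPM in knockout mice, with 3 positive and 6 negative log2 fold changes. At an unadjusted p under 0.05 in edgeR's test, *Il2rb* had -0.46 and *Cd8a*, named after its values were seen, 0.59. Dendritic and class II markers overlapped, at 2260 to 2696 CPM and 2021 to 2667 CPM. B lineage markers also overlapped, at 75.7 to 212.8 CPM in wild type and 101.5 to 337.1 CPM in knockout mice, and so did the 6 erythroid markers tested, at 120.7 to 248.9 CPM and 68.2 to 252.4 CPM. Late neutrophil markers summed to 7934 to 11057 CPM in wild type and 9029 to 24913 CPM in knockout mice, all 10 with a positive log2 fold change and the highest sum in knockout replicate 3. Without that mouse 2 of the 10 were negative, and the median of the list was 0.23 in place of 0.72. The part of these cell types in the levels of the 10 class I genes was not tested.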

How the data were processed

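Total RNA of lin- bone marrow cells was made into QuantSeq 3′ libraries from 500 ng per mouse and sequenced as single-end 75 bp reads. The deposited values are raw counts of reads per gene symbol, made by the authors with STAR on GRCm38 and Ensembl annotation and not normalized; per the submitters' processing notes, FastQC and DESeq2 were also used. The strand counted is not given in the sources used here; of the read-length words at the 3′ end of *Psmb8*, 6.66% also occur in its antisense gene *Gm20496*, and *B2m* and *Psmb10* share 0%. The 5 tally rows, 29.4% to 33.6% of each file's total, were left out.

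Counts were tested with the robust quasi-likelihood test of edgeR 4.0.16 (R 4.3.3; TMM, filterByExpr, Benjamini-Hochberg over 11265 genes; threshold 0.25, with 0.05 beside it). SEs are the log2 fold change over the square root of F. Log2 read ratios were compared by two-sided exact permutation. Alternatives were DESeq2 1.42.0, limma-voom (limma 3.58.1), the likelihood ratio test, other scalings and filters, the replicate block and omission of each mouse. Replicates are separate mice by their labels; no pair of replicate libraries was alike within sampling noise. A count of 3 reads, the floor, equals 0.535 to 0.851 CPM.

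The members and lists were chosen with earlier results of these data known. The genes named were the 10 members, *Hdgfl2*, *Rn45s*, *Psmb5*, *Psmb6*, *Psmb7* and, from each other list, up to 5 genes with the highest mean CPM and any past the threshold; genes outside this rule, such as the hemoglobin, *Xist* and *Ddx3y* genes and those marked in the text, were named after their values were seen.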

Additional observations from a re-analysis of the deposited data

Results flagged for a closer look

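In the 4 knockout mice 75 values were tested for 1 mouse far from the other 3, and 6 of the 75 were flagged. The measure was the gap of that mouse to the nearest mouse over the range of the group (above Dixon's critical value at the 95% level). The 75 values did not take in every listed gene, so the 6 are not a count over all listed genes. Chance gives such a gap in about 1 in 20 groups. Of the 10 class I genes, this held for *Psmb10*, with 128.2 CPM in knockout replicate 2 against 114.5 to 116.4 CPM in the other 3. Among class Ib genes it held for knockout replicate 4, with *Cd1d1* at 50.1 CPM against 29.7 to 33.0 CPM and *H2-T24* at 17.4 CPM against 8.78 to 9.56 CPM. The B lineage gene *Vpreb1* stood at 63.8 CPM in the same mouse against 17.7 to 22.3 CPM. The NK gene *Nkg7* stood at 337.9 CPM in knockout replicate 2 against 274.5 to 285.3 CPM, and the macrophage gene *Cd5l* at 15.4 CPM in knockout replicate 1 against 23.9 to 25.1 CPM. The 3 wild type mice were too few for this comparison.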

How the results depend on the processing

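None of the 10 class I genes passed an adjusted p of 0.25 under any of the 17 alternatives, whose smallest adjusted p for a member lay between 0.291 (no filter on low counts, *Tap2*) and 1.00. Between 0 and 5 of them had an unadjusted p under 0.05. Over all genes that share was 2.55% with the replicate block, where 0 members had it, and 4.37% with no filter on low counts, where 5 had it. Over all genes the count past the threshold was 2, and 19 with DESeq2, 29 with the likelihood ratio test, 41 with no filter on low counts, 1 with at least 10 counts in every mouse and 2 to 7 with 1 mouse left out (7 without wild type replicate 1); the cause was not tested. The sign of *Tapbp* turned to 0.0045 with DESeq2, 0.0080 with limma-voom, 0.0045 with RLE factors and 0.013 with library totals, and it ranged from -0.12 to 0.13 with 1 mouse left out. In the same omissions *Psmb8* ranged from -0.16 to 0.012 and *Nlrc5* from -0.27 to 0.25, while *Psmb9* over *Psmb6* kept its sign (-0.65 to -0.35) but had adjusted exact permutation p-values of 0.15 to 0.3, with fewer mice and so fewer splits. With the mean of 3 constitutive subunits as denominator, *Psmb8* (-0.10) and *Psmb10* (0.14) changed sign. Same-numbered mice are not paired by the labels, and their deviations did not go together (r of -0.023, -0.19 and -0.14; 0 of 6 libraries correlated best with its own number). With a block for the replicate number, 1 gene passed, no member had an unadjusted p under 0.05, and the differences of the log2 ratios were 0.38, -0.42 and -0.093; with 3 pairs no exact p can fall below 0.25, so the block gives no test of these ratios. At 49 to 121 reads per mouse, depth limits *Nlrc5* most.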
